A study of Mus musculus with 6 samples.

Results

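The genes described here encode carriers that move amino acids across cell membranes, together with the partner proteins that bring some of them to the cell surface. They were chosen by name, as the genes whose symbol in the array annotation begins with Slc1a, Slc3a, Slc6a, Slc7a, Slc36a, Slc38a or Slc43a and then a number, and Tmem27, now called Cltrn. There were 63 such genes among 20416 measured. Expression was measured on 6 Affymetrix arrays, 1 for each mouse kidney sample. All samples are labelled with renal fibrosis that was induced by TGF-β1, a cytokine of scarring. The 3 arrays of the B6-TGFbeta group (replicates 1, 2 and 3) came from mice named for the C57BL/6 background, and the 3 arrays of the CBAxB6-TGFbeta group (replicates 4, 5 and 6) from mice named for a CBA and B6 cross. The question set by the series title is how kidneys of inbred strains differ in their susceptibility to this fibrosis. The labels add WT to the first group and KO to the second without naming a disrupted gene, and both groups carry TGFbeta. No array came from a kidney without TGFbeta, so a strain difference present without fibrosis and a response that differs between strains cannot be told apart, nor can a genotype behind WT and KO be told apart from the strain. The promoter, cell type or dose behind the TGF-β1 is not given in the sources used here, and animals were littermate cohorts matched for age and sex, per the labels. Nothing states that the arrays of a group came from separate animals, so the p-values rest on the spread between these arrays. For each gene this spread was moderated with that of all genes.

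In the kidney, nearly all filtered amino acids are taken back by the proximal tubule. Carriers in the apical brush border, many driven by sodium, bring amino acids from the filtrate into the cell, and carriers in the basolateral membrane pass them on to the blood. Some carriers work only as pairs: a light chain of the Slc7a family carries the amino acids and a heavy chain, Slc3a1 or Slc3a2, takes the light chain to the membrane. Several Slc6a carriers of the brush border instead depend on Tmem27, the membrane protein collectrin. Inherited defects of these genes cause cystinuria (SLC3A1, SLC7A9), Hartnup disorder (SLC6A19), lysinuric protein intolerance (SLC7A7) and dicarboxylic aminoaciduria (SLC1A1).

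Values are log2 intensities throughout, and the medians of the 6 arrays ran from 7.27 to 7.34. Kidney identity was plain in all arrays, since Umod of the thick ascending limb lay between 11.96 and 12.27 and Lrp2 of the proximal tubule between 11.04 and 12.22. B6-TGFbeta replicate 2 stood apart in markers of neighbouring tissue. Its Ucp1, a brown fat gene, was 10.93 against 5.13 to 6.22 on the other 5 arrays, and its Chgb, an adrenal medulla gene, was 11.21 against 5.80 to 6.32. Star, an adrenal cortex gene, was raised in replicate 1 as well, at 8.90 against 10.74 in replicate 2 and at most 6.46 elsewhere. The liver gene Alb was 10.94 in CBAxB6-TGFbeta replicate 6, 9.45 in replicate 2 and 6.00 to 6.29 elsewhere. In CBAxB6-TGFbeta replicate 4 the fat genes Adipoq (6.58) and Cfd (7.56) lay below replicate 2 (8.57 and 8.85). They lay above the remaining arrays (4.88 to 5.00 and 6.73 to 6.81), while the fat gene Plin1 of replicate 4, at 6.39, did not. All 6 arrays had Xist at 4.24 to 4.72 and the Y-linked Kdm5d at 8.51 to 8.78, a check chosen after these values were seen. Results are given without replicate 2 where it changes them.

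Of the 63 transporter genes, 14 were lower in CBAxB6-TGFbeta than in B6-TGFbeta kidneys and none was higher at an adjusted p under 0.05 (limma, Benjamini-Hochberg over all genes). Across all genes tested, 934 were lower, which is 4.57%, and 628 were higher, which is 3.08%. The falls ran from 1.43-fold for Slc7a7, the carrier of cationic amino acids that is lost in lysinuric protein intolerance, to 2.95-fold for Slc6a19, the main sodium-driven carrier of neutral amino acids. Most of the genes that fell serve the proximal tubule: 6 of the 11 brush border members fell and 5 of the 6 basolateral members fell. Among the rest, 2 of 5 genes for osmolytes, creatine and GABA fell, 1 of 14 in the neurotransmitter group fell, and none of 13 genes of general amino acid uptake or of 14 lysosomal or less studied genes passed. The role groups were drawn up with earlier results of these data known. Slc7a12, a late proximal tubule gene that did not pass, was placed among the less studied genes. The median difference of the 63 genes was -0.08, with a range from -2.23 to 0.62, beside a median of 0.02 over all genes. With an unadjusted p under 0.05 there were 26 lower and 2 higher members, beside 11.1% and 10.5% of all genes. In 24 members every CBAxB6-TGFbeta array lay below every B6-TGFbeta array, where 13.4% of all genes did so, and in 5 members every one lay above, where 13.5% of all genes did so. Groups that do not overlap in either direction were found in 26.8% of all genes.

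**Figure D1:**
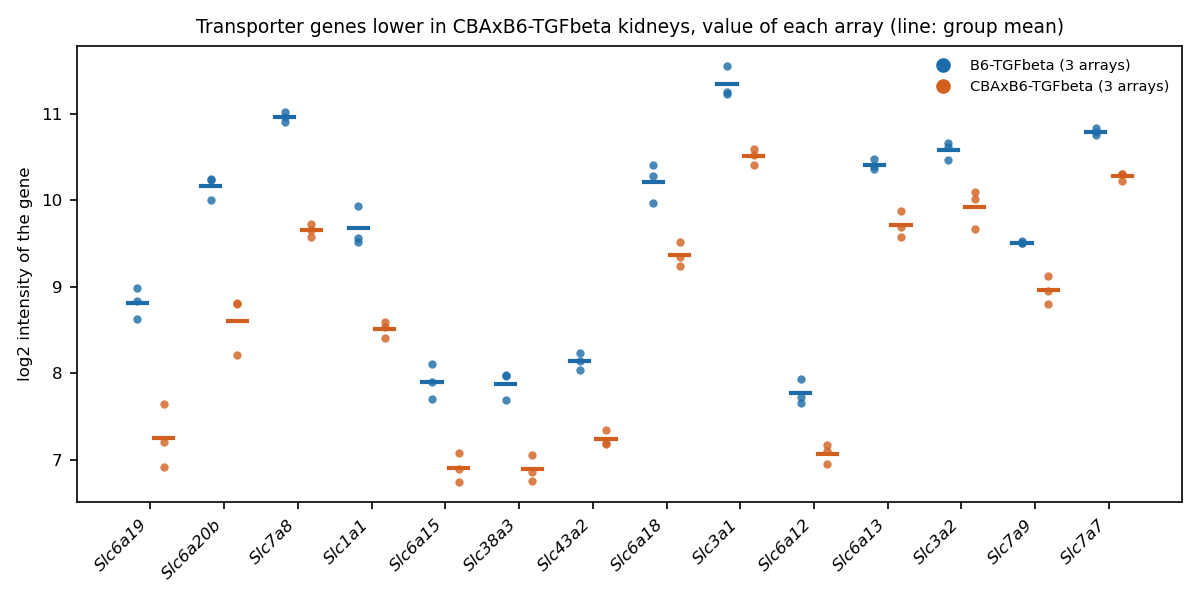
Log2 intensity of the 14 transporter genes that passed, ordered by size of difference, with 1 point for each array and a line at the mean of each group of 3. In every gene the CBAxB6-TGFbeta points lie below the B6-TGFbeta points without overlap, by 1.56 on the log2 scale for Slc6a19 at the left and by 0.52 for Slc7a7 at the right.

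**Figure D2:**
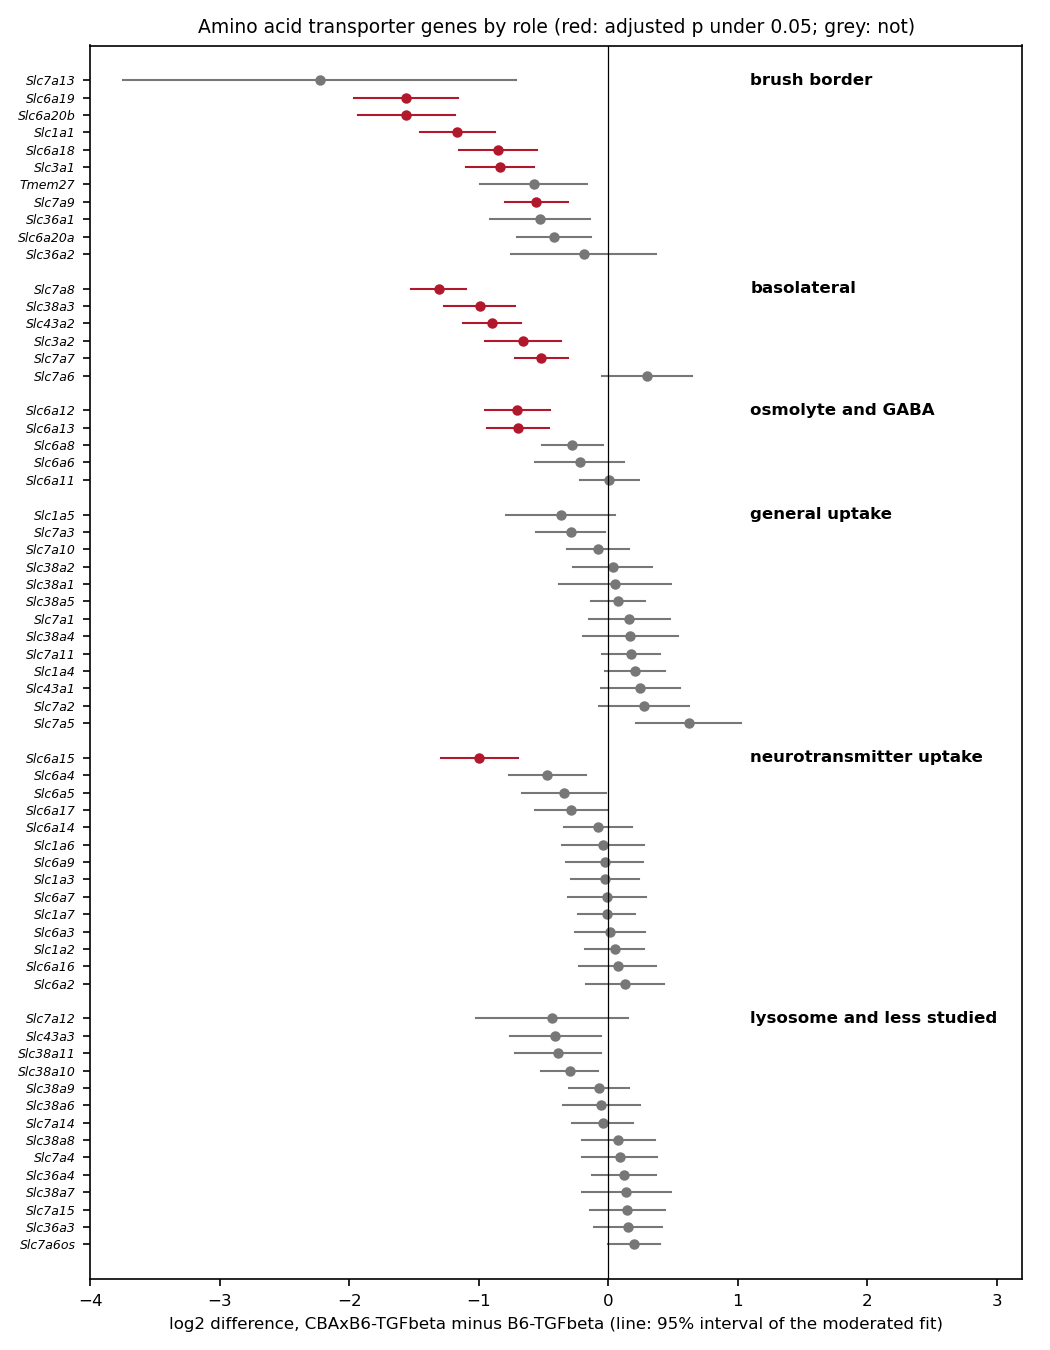
Log2 difference, CBAxB6-TGFbeta minus B6-TGFbeta, of all 63 genes (points) with its 95% interval from the moderated fit (lines), grouped by role, red where the adjusted p was under 0.05. The red points are all left of 0 and 11 of the 14 belong to the brush border and basolateral groups, while the general uptake genes scatter around 0 up to 0.62 for Slc7a5.

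The count depended on the number of arrays and on how the 4 to 21 probe sets of a gene were combined. Leaving out 1 array with the gene values kept gave 11 to 18 members lower. Repeating the summary of probe sets over the 5 arrays left, an alternative chosen after seeing the data, gave 2, 2 and 2 members lower without replicates 1, 2 and 3, and 6, 1 and 10 without replicates 4, 5 and 6. In these 6 fits the brush border count was 0, 0, 0, 2, 0 and 4 and the basolateral count 2, 2, 2, 2, 1 and 4. Of the 6 lower without replicate 4, 5 were among the 14 genes, and of the 10 lower without replicate 6, 9 were. All 14 genes kept a negative difference in each of these fits. Slc7a8 passed in every one of the 22 alternative fits and was the only member to do so.

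The brush border carriers that fell take up neutral, acidic and cationic amino acids and cystine. The promoters of 2 brush border genes that fell, Slc3a1 and Slc6a20b, and of 2 that did not pass, Tmem27 and Slc6a20a, are shown as examples with and without the letters of kidney transcription factor motifs. They were chosen after the matches were seen. RefSeq windows of 300 bases (assembly GRCm38.p6, from 250 bases before to 50 after the transcript start) were found for 46 of the 63 genes, with 68 windows in all. The motifs searched on both strands were GTTAAT, the core letters of an HNF1 site, and CAAAGTCCA, a site of HNF4, both factors of proximal tubule cells. The 4 windows below are written 5′ to 3′ on the gene's strand with any match in capitals. They lie at chr17:85028097-85028396 (plus strand, Slc3a1), chrX:164089937-164090236 (plus strand, Tmem27), chr9:123678783-123679082 (minus strand, Slc6a20a) and chr9:123632489-123632788 (minus strand, Slc6a20b).
Slc3a1: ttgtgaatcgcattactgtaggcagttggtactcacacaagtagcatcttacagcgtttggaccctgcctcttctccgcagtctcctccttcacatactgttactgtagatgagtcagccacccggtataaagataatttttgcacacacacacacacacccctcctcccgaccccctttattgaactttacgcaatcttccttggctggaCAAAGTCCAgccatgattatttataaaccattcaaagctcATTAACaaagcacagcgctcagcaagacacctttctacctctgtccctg
Tmem27: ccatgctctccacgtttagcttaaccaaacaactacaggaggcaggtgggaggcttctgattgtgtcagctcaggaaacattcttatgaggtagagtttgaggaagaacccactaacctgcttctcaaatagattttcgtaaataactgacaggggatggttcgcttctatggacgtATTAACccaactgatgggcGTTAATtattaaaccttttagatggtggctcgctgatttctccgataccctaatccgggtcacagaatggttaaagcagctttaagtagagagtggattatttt
Slc6a20a: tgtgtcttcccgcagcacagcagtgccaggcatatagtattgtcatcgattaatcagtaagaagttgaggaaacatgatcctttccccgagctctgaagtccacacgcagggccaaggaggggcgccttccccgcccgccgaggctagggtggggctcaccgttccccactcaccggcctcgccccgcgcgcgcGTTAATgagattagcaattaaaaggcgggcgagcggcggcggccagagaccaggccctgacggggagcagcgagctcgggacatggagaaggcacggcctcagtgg
Slc6a20b: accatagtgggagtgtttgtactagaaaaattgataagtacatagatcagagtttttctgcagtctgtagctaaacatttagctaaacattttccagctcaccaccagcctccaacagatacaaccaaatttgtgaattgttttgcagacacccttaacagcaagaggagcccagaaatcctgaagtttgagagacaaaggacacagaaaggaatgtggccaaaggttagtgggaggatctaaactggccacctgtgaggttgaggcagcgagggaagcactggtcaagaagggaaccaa

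Counted from 1 at the 5′ end, the Slc3a1 window held the HNF4 letters at position 212 and the HNF1 core at position 252 on the opposite strand. The Tmem27 window, the upstream one of 2 in RefSeq, held the HNF1 core at position 178 on the opposite strand and position 197, and the Slc6a20a window held 1 at position 195. No match was found in the Slc6a20b window, although Slc6a20b fell and Slc6a20a did not pass. The windows of Slc1a1, Slc6a19 and Slc7a9, which also fell, held neither the HNF1 core nor the HNF4 letters either. The HNF1 core occurred in 8 of the 68 member windows (11.8%), in 8 genes, and in 2332 of all 32851 windows (7.1%). Of the 14 genes that fell, 11 had a window and 3 of these held it. This is a count of genes, some with several windows, so it cannot be set against the share of all windows. The HNF4 letters occurred in 1 member window, that of Slc3a1, and in 156 of all windows (0.475%). The element TGATGNAA bound by C/EBP and ATF factors occurred in 4 member windows of 3 genes, Slc1a4, Slc7a11 and Slc7a7, and in 1304 of all windows (3.97%). Overlapping windows of Slc7a7 share a site, which was counted in each. The longer HNF1 palindrome was in no member window and in 3 of all windows. These matches describe letters, and binding was not measured.

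Slc6a19, whose loss causes Hartnup disorder, had log2 intensities of 8.98, 8.62 and 8.84 in B6-TGFbeta replicates 1 to 3 and 6.92, 7.20 and 7.65 in CBAxB6-TGFbeta replicates 4 to 6. The groups were apart by almost a full log2 unit at their nearest arrays, and the CBAxB6-TGFbeta arrays were more spread than the B6-TGFbeta arrays. The mean fell by 1.56 ± 0.18 (SE, n = 3 arrays a group), or 2.95-fold, with an adjusted p of 0.0014 in limma. Each of its 16 probe sets was lower, with differences from -2.15 to -0.21, and its brightest probe set gave -1.82.

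Slc6a20b is 1 of 2 mouse genes related to the human proline carrier SLC6A20. Its values were 10.25, 10.00 and 10.23 in B6-TGFbeta and 8.21, 8.80 and 8.81 in CBAxB6-TGFbeta arrays. It fell by 1.56 ± 0.17, or 2.94-fold (adjusted p = 0.0010, limma), and all 10 of its probe sets were lower. Slc6a20a, its neighbour on chromosome 9, had 8.97, 8.65 and 8.74 against 8.57, 8.28 and 8.26. Its arrays did not overlap either, but the difference of -0.42 ± 0.13 did not pass (adjusted p = 0.081). The change in this gene pair was thus -1.56 in 1 copy and -0.42 in the other; the difference between the copies was not tested, and probe sets of such similar genes may share signal.

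Slc1a1 encodes the glutamate and aspartate carrier EAAT3. Replicates 1 to 3 had 9.94, 9.57 and 9.52, and replicates 4 to 6 had 8.41, 8.59 and 8.54. The lowest B6-TGFbeta array lay well above the highest CBAxB6-TGFbeta array, and the fall was 1.16 ± 0.13, or 2.24-fold (adjusted p = 0.0011). All 17 probe sets were lower, though the brightest one alone, at -0.79, had an adjusted p of 0.080.

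Slc6a18, a neutral amino acid carrier of the later proximal tubule, had 10.40, 9.97 and 10.28 in B6-TGFbeta and 9.52, 9.35 and 9.24 in CBAxB6-TGFbeta kidneys. The arrays were apart and the gene fell by 0.85 ± 0.13, or 1.80-fold (adjusted p = 0.0064), with all 16 probe sets lower.

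Slc3a1 (rBAT) and Slc7a9 together form the carrier of cystine and cationic amino acids that is defective in cystinuria. The heavy chain gene Slc3a1 had 11.55, 11.25 and 11.23 against 10.41, 10.52 and 10.59, and the light chain gene Slc7a9 had 9.53, 9.50 and 9.50 against 8.80, 9.13 and 8.95. Both genes had every CBAxB6-TGFbeta array below every B6-TGFbeta array. Slc3a1 fell by 0.84 ± 0.12, or 1.78-fold (adjusted p = 0.0036), in all of its 9 probe sets. A further probe set that the annotation assigns to both Slc3a1 and its neighbour Prepl was left out of the gene value, and its difference was -0.82. Slc7a9 fell by 0.55 ± 0.11, or 1.47-fold (adjusted p = 0.016), in all of its 14 probe sets. Its brightest probe set alone gave -0.29 (adjusted p = 0.59, limma). Slc7a9 passed in 10 of the 22 alternative fits and in none of those with probe sets summarised again. The call on Slc7a9 was lost without replicate 1 (adjusted p = 0.076) or without replicate 3 (adjusted p = 0.061), with the gene values kept.

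Slc7a13, which also pairs with Slc3a1 and carries cystine and acidic amino acids in the last part of the proximal tubule, had the largest difference of any member and CBAxB6-TGFbeta arrays that lay far apart. Its values were 11.12, 10.79 and 10.73 in B6-TGFbeta replicates and 6.73, 9.09 and 10.13 in CBAxB6-TGFbeta replicates. All 3 of the latter were below the former, but they spanned more than 3 log2 units among themselves, with replicate 4 lowest. The means were 10.88 ± 0.21 and 8.65 ± 1.74 (SD, n = 3), and the difference of -2.23 (95% interval -3.75 to -0.71) did not pass, with an adjusted p of 0.083. With the gene values kept, it was -1.27 without replicate 4 (adjusted p = 0.025) and -2.97 without replicate 6 (adjusted p = 0.016). Both were past the threshold. With probe sets summarised again, 6 members were lower past it without replicate 4 and 10 without replicate 6. Of these, 5 and 9 were among the 14 genes that fell. So Slc7a13 and Slc36a1 cannot both have passed there without replicate 4, nor can Slc7a13, Tmem27 and Slc7a12 all have passed without replicate 6. The 4 probe sets of Slc7a13 ranged only from -2.52 to -1.88, so the spread lay between arrays and not between probe sets.

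Tmem27 followed the same order of arrays within the CBAxB6-TGFbeta group. It had 11.86, 11.74 and 11.69 in B6-TGFbeta and 10.79, 11.17 and 11.61 in CBAxB6-TGFbeta arrays, where replicate 6 came close to the B6-TGFbeta level. The difference was -0.58 ± 0.18 (adjusted p = 0.096), with 6 of 6 probe sets lower. Without replicate 6 it was -0.79 (adjusted p = 0.012) with the gene values kept. The limit given for Slc7a13 holds for Tmem27 as well. Beside this partner, the Slc6a carriers it serves differed by -1.56 (Slc6a19), -1.56 (Slc6a20b), -0.85 (Slc6a18) and -0.42 (Slc6a20a).

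The last brush border members are carriers driven by protons. Slc36a1, which carries small neutral amino acids and is also found in lysosomes, had 8.57, 8.55 and 8.53 against 8.46, 7.83 and 7.78, with replicate 4 near the B6-TGFbeta arrays. Its difference was -0.53 ± 0.17 (adjusted p = 0.10), and -0.75 without replicate 4 (adjusted p = 0.0047), with the gene values kept. The limit given for Slc7a13 holds for Slc36a1 as well. Slc36a2, a glycine and proline carrier that brown fat also expresses, had 6.26, 7.28 and 6.26 against 6.61, 6.35 and 6.28. Replicate 2, the array with the highest fat markers, was the only high one. The difference was -0.19 ± 0.25 with replicate 2 and 0.15 without it.

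**Figure D3:**
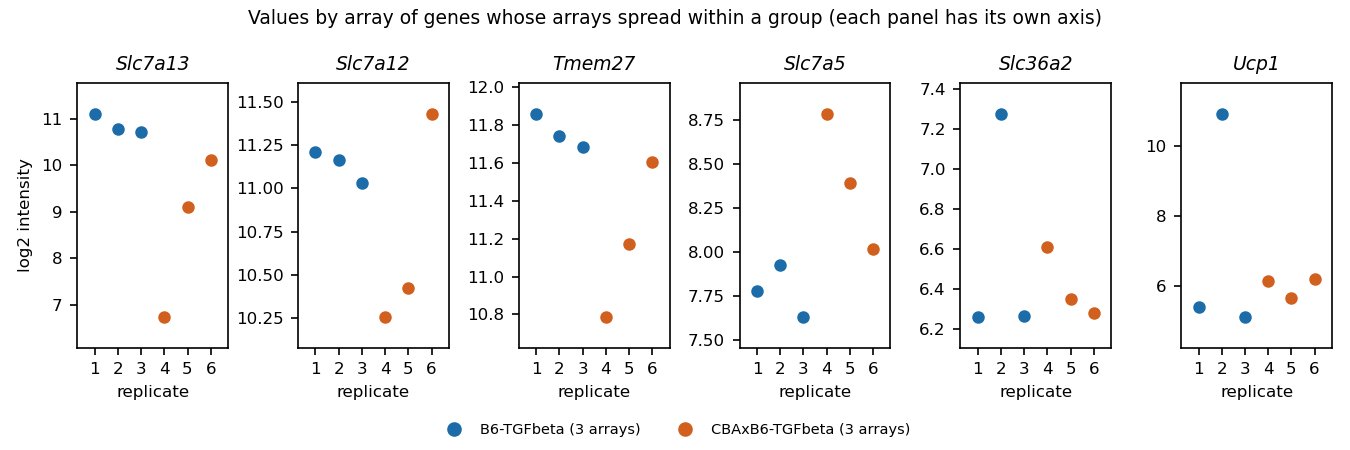
Log2 intensity on each array, by replicate number, for 5 transporter genes whose arrays spread within a group and for the brown fat gene Ucp1, each panel with its own axis. Replicate 4 is the lowest array in Slc7a13 (6.73), Slc7a12 (10.25) and Tmem27 (10.79) and the highest in Slc7a5 (8.79), and replicate 2 is high in Slc36a2 (7.28) as in Ucp1.

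On the basolateral side, Slc7a8 had the smallest adjusted p of all members. Slc7a8 (LAT2) exchanges neutral amino acids between the tubule cell and the blood. Its values were 11.02, 10.96 and 10.90 in B6-TGFbeta and 9.58, 9.65 and 9.72 in CBAxB6-TGFbeta kidneys. Each group spanned under 0.2 log2 units and the groups lay more than 1 unit apart. The gene fell by 1.31 ± 0.09, or 2.48-fold, with an adjusted p of 0.00016, and all 12 probe sets were lower, with differences from -1.50 to -1.04.

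Slc38a3 (SNAT3) carries glutamine, from which the proximal tubule makes ammonia. It had 7.97, 7.98 and 7.69 against 6.75, 6.85 and 7.06, with no overlap. The fall was 0.99 ± 0.12, or 1.99-fold (adjusted p = 0.0020), and 15 of 18 probe sets were lower. Slc43a2 (LAT4), a facilitated pathway for branched-chain and aromatic amino acids, had 8.23, 8.04 and 8.14 against 7.35, 7.20 and 7.18. Its groups were tight and apart, the fall was 0.90 ± 0.10, or 1.86-fold (adjusted p = 0.0012), and 17 of 18 probe sets were lower.

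Slc3a2 (4F2hc, CD98) is the heavy chain of most basolateral Slc7a carriers and is made by many other cells. Its arrays read 10.67, 10.62 and 10.47 in B6-TGFbeta and 10.09, 10.02 and 9.66 in CBAxB6-TGFbeta, apart but with replicate 6 lowest. It fell by 0.66 ± 0.13, or 1.58-fold (adjusted p = 0.017), in all 10 probe sets. The call was lost without replicate 1 (adjusted p = 0.085) or replicate 2 (adjusted p = 0.053), with the gene values kept.

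Slc7a7 (y+LAT1), the light chain that exports cationic amino acids, had 10.76, 10.84 and 10.79 against 10.22, 10.31 and 10.31. These are narrow groups, each within 0.1 log2 units, and the fall was 0.52 ± 0.09, or 1.43-fold (adjusted p = 0.011). The probe sets of Slc7a7 did not all move together: 10 of 12 were lower, while the eleventh had 4.48, 4.37 and 4.66 against 7.15, 6.93 and 6.78, a difference of 2.45. The twelfth had a difference of 0.91 with arrays that overlapped. Using the mean of the probe sets in place of median polish, Slc7a7 had a difference of -0.19 and did not pass (adjusted p = 0.33), and without replicate 1 its adjusted p was 0.0504. Slc7a7 is also expressed by macrophages, whose markers were higher in CBAxB6-TGFbeta kidneys. Of 6 macrophage markers 5 rose, with a median difference of 1.44, where 3.08% of all genes rose. The part of macrophages in the values of Slc7a7 was not tested.

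The sixth basolateral member, Slc7a6 (y+LAT2), is a light chain close to Slc7a7. It had 7.58, 7.74 and 7.58 against 8.21, 8.01 and 7.59, and replicate 6 was at the B6-TGFbeta level. The difference of 0.30 (95% interval -0.04 to 0.65) did not pass (adjusted p = 0.30). Without replicate 6 it was 0.48 (adjusted p = 0.041) with the gene values kept. With probe sets summarised again without that array, no basolateral member was higher past the threshold. Set beside their heavy chain Slc3a2 at -0.66, the light chain genes differed by -1.31 (Slc7a8), -0.52 (Slc7a7), -0.08 (Slc7a10), 0.18 (Slc7a11), 0.30 (Slc7a6) and 0.62 (Slc7a5). Without replicate 1, with the gene values kept, 3 basolateral members were lower in place of 5.

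**Figure D4:**
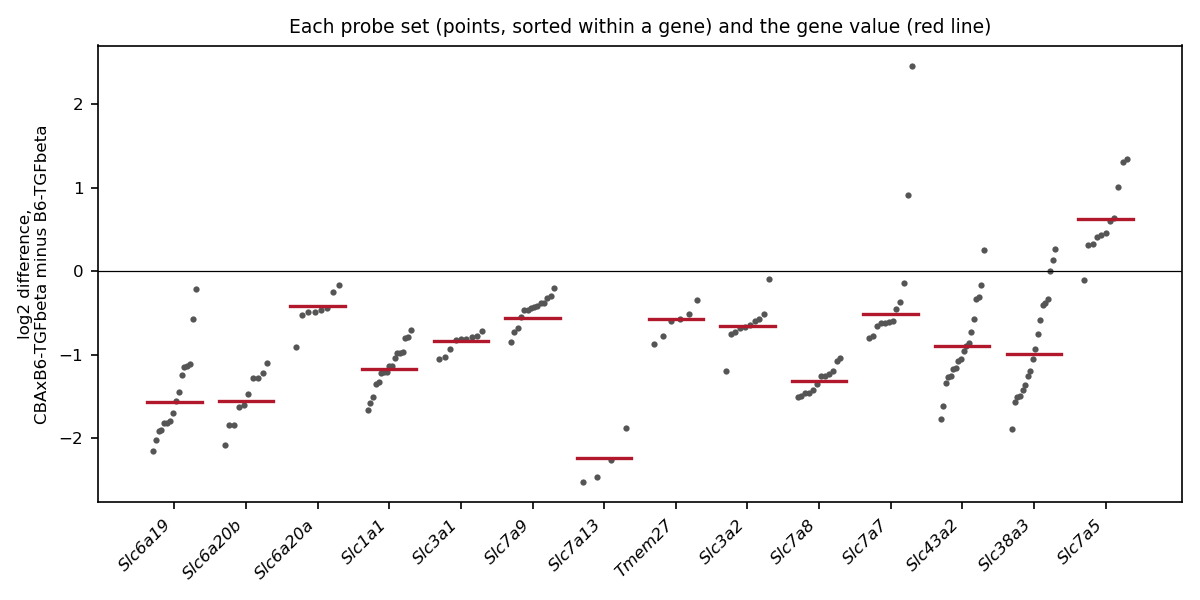
Log2 difference of every probe set (points, sorted within a gene) and of the gene value by median polish (red line) for 14 genes. All points of Slc6a20b, Slc7a8 and Slc7a13 lie at or below -1.04, whereas Slc7a7 has 1 probe set at 2.45 and Slc7a5 has 10 of 11 points above 0.

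Among carriers of osmolytes, creatine and GABA, the betaine carrier Slc6a12 and the GABA and taurine carrier Slc6a13 both fell. Slc6a12, used by cells of the medulla to balance high salt, had 7.93, 7.73 and 7.65 against 7.10, 6.95 and 7.17. Slc6a13 had 10.48, 10.39 and 10.36 against 9.88, 9.57 and 9.69. Neither gene had overlapping groups, and both fell by 0.70 ± 0.11, with adjusted p-values of 0.0069 and 0.0062. All 14 probe sets of Slc6a13 and 13 of 15 of Slc6a12 were lower. The creatine carrier Slc6a8 differed by -0.28 ± 0.11 (adjusted p = 0.17), the taurine carrier Slc6a6 by -0.22 ± 0.15 (adjusted p = 0.47) and the GABA carrier Slc6a11 by 0.01. Slc6a6 was among the brightest members, and its replicate 4, at 11.28, was above all B6-TGFbeta arrays, so the groups overlapped.

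In the neurotransmitter group, Slc6a15 was the single gene of 14 that passed. It encodes a carrier of branched-chain amino acids and proline that is best known from neurons. Its kidney values were 8.11, 7.70 and 7.90 in B6-TGFbeta and 6.75, 6.89 and 7.08 in CBAxB6-TGFbeta arrays. They did not overlap, and the gene fell by 1.00 ± 0.13, or 1.99-fold (adjusted p = 0.0030), with 12 of 14 probe sets lower. The serotonin carrier Slc6a4 had arrays that did not overlap, at 6.74, 6.94 and 6.47 against 6.13, 6.27 and 6.33. Its difference of -0.47 ± 0.13 did not pass (adjusted p = 0.065). The glycine carrier Slc6a5 (-0.34), the vesicular carrier Slc6a17 (-0.28) and the noradrenaline carrier Slc6a2 (0.13) did not pass either. The group's median difference was -0.03.

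The genes of general amino acid uptake supply growing and activated cells of many tissues. None of these 13 passed, and their median difference was 0.16. Slc7a5 (LAT1), the light chain that carries leucine and other large neutral amino acids into dividing cells, came nearest to a rise. It had 7.78, 7.92 and 7.63 in B6-TGFbeta and 8.79, 8.39 and 8.02 in CBAxB6-TGFbeta kidneys, with no overlap and replicate 4 highest. The difference was 0.62 (95% interval 0.22 to 1.03) with an adjusted p of 0.071. Its brightest probe set alone had a difference of 1.31 and passed (adjusted p = 0.024). Without replicate 6, with the gene values kept, Slc7a5 also passed, at 0.81 (adjusted p = 0.014). With probe sets summarised again without that array, no member was higher past the threshold. The glutamine carrier Slc1a5 had a difference of -0.37 (adjusted p = 0.31), and its B6-TGFbeta replicate 2, at 9.25, was its highest array. For the cationic amino acid carriers, Slc7a2 differed by 0.28 (adjusted p = 0.35) and Slc7a3 by -0.29 (adjusted p = 0.20). The serine and alanine carrier Slc1a4 (0.21) and the cystine and glutamate exchanger Slc7a11 (0.18) had CBAxB6-TGFbeta arrays above all B6-TGFbeta arrays without passing. Slc38a2, a stress-responsive carrier of small neutral amino acids and a bright member, differed by 0.04 ± 0.13, with a 95% interval from -0.27 to 0.34.

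None of the 14 lysosomal and less studied members passed. Slc7a12, a late proximal tubule gene, had 11.21, 11.17 and 11.03 against 10.25, 10.42 and 11.43. Replicates 4 and 5 lay below all B6-TGFbeta arrays and replicate 6 above them. The difference was -0.43 ± 0.26 (adjusted p = 0.39), and -0.80 without replicate 6 (adjusted p = 0.0047), with the gene values kept. The limit given for Slc7a13 holds for Slc7a12 as well. Slc43a3 (-0.41), Slc38a11 (-0.39) and Slc38a10 (-0.30) had adjusted p-values of 0.17, 0.16 and 0.11. Slc43a3 is counted by its name and is not known as an amino acid carrier. Slc7a6os, named for its place opposite Slc7a6, is not a carrier at all; it differed by 0.20 (adjusted p = 0.22) with arrays that did not overlap.

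All 14 genes that fell were among the 38 members whose mean over all arrays was above that of the median gene (6.94), and none of the 25 dimmer members passed. Over all genes of any brightness, 7.65% passed in either direction. The shares of all brighter and all dimmer genes that passed were not counted, so this split cannot be set against them. In the genes that fell, 185 of their 195 probe sets were lower, and in 9 of the 14 genes every probe set was. The gene values were made from these same probe sets, so the counts follow in part from the calls. The share of lower probe sets over all genes was not counted. The brightest probe set alone passed in 6 of the 14. Within the CBAxB6-TGFbeta group, replicate 4 was the lowest array in 9 of the 14 genes, replicate 6 in 3 and replicate 5 in 2, and replicate 6 was the highest in 8.

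Other genes of amino acid handling were counted from a list outside the transporter families. Of 29 listed, 25 were measured, 4 fell, none rose, and the median difference was -0.12. Of all genes, 4.57% fell and 3.08% rose. The listed genes that fell were Slc25a15 (-0.86, adjusted p = 0.0023), the mitochondrial ornithine carrier, and Slc15a2 (-0.84, adjusted p = 0.023), the brush border carrier of small peptides. The others were Slc25a12 (-0.59, adjusted p = 0.0076), the mitochondrial aspartate and glutamate carrier, and Hnf4a (-0.89, adjusted p = 0.0070). Hnf4a is a transcription factor of the proximal tubule that is also among the markers below. The aromatic amino acid carrier Slc16a10, the stress factor Atf4 and the lysosomal cystine carrier Ctns differed by -0.30, -0.11 and 0.09 and did not pass.

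Markers of cell types also differed between the groups, where 4.57% of all genes fell and 3.08% rose. Of the 13 measured proximal tubule markers, 12 fell, with a median difference of -1.16, and the log2 of their summed level was 14.91 to 15.08 in B6-TGFbeta and 13.41 to 13.95 in CBAxB6-TGFbeta arrays. Of 4 early proximal markers 2 fell (median -0.86), and of 6 late proximal markers, which include the member Slc7a12, 3 fell (median -0.55), with Cyp7b1 at 0.20. In 6 distal nephron markers 4 fell, with a median of -0.93, and of 3 podocyte markers 2 fell, with a median of -0.44. Macrophage markers rose, their summed level going from between 10.11 and 10.39 to between 11.06 and 11.67, while none of 6 T and B cell markers passed. In whole kidney RNA, fewer cells of a type and less RNA of a gene per cell cannot be told apart, and the part of these shifts in the transporter differences was not tested. None of the 10 adrenal markers passed between the groups, although their median difference was -1.01. Star differed by -2.61 (adjusted p = 0.097, limma), and its groups did not overlap. Values raised on single B6-TGFbeta arrays widen the spread within that group, so the fit had little power to call such genes. Of the 9 fat markers Ppara alone passed. Ppara had 8.69, 9.01 and 8.61 against 7.96, 7.97 and 8.23, a fall on all arrays and not in replicate 2 alone.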

How the data were processed

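Kidney RNA of 6 samples was hybridised to Affymetrix arrays. The deposited values are log2 intensities for probe sets, made by the authors with RMA and Partek per the submitters' processing notes, with no version or setting given, and the build of the array annotation is not given in the sources used here. Of 241576 rows, the 212097 with 1 gene symbol were summarised per gene (20416 genes) with Tukey's median polish, and the 4475 with several symbols and 25004 with none were left out. Of the 63 symbols 62 are current in RefSeq and Tmem27 is an older name. The groups were compared with limma 3.58.1 (R 4.3.3) as CBAxB6-TGFbeta minus B6-TGFbeta, two-sided, with moderated variances and Benjamini-Hochberg adjustment over all genes. Errors of differences are standard errors. The fit was tested on simulated data. The number of arrays limits the precision.

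The members, role groups, marker lists and motifs were chosen with earlier results of these data known. Named are all members that passed, up to 4 others with the largest difference in each role group, the 6 brightest members, and partners. Members whose brightest probe set differs in sign from the gene value are also named, in the closing section and without separate statistics. Slc36a2, Slc1a4, Slc7a11 and Slc7a6os were described after their values were seen. The alternatives concern the scaling, the summary of probe sets, filters on dim values, the moderation, array weights and arrays left out.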

Additional observations from a re-analysis of the deposited data

How the results depend on the processing

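The 14 genes that fell had a negative difference in each of the 22 alternative fits. With the gene values kept, this sign could not change, because the groups of these genes do not overlap. The number of all 63 members that were lower past the threshold moved. It was 6 with 1 probe set per gene, the brightest, 1 without moderation of variances, 1 when replicate 3 alone stood for B6-TGFbeta, and 11 to 18 with each array left out (gene values kept). With gene values summarised again over the 5 arrays left, chosen after seeing the data, it was 1 to 10. The number of members higher was 1 with the brightest probe set and 1 with array weights (Slc7a5 in both), and 0 to 2 with an array left out. Brush border genes lower numbered 10 with array weights, 0 without moderation, 0 with replicate 3 alone, 5 to 9 with an array left out and 0 to 4 when summarised again. Basolateral genes lower numbered 2 with the brightest probe set, 1 without moderation, 1 with replicate 3 alone, 3 to 5 with an array left out and 1 to 4 when summarised again, and 0 to 1 were higher.

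The median difference of the members was -0.19 with the brightest probe set, -0.16 with the dimmer 50% of rows removed, -0.19 with the dimmest 25% of genes removed and -0.16 with replicate 3 alone. It ran from -0.18 to -0.0548 with an array left out and from -0.13 to -0.0419 when summarised again. Over all genes, 282 were lower and 335 higher with the brightest probe set, 40 and 23 without moderation, and 16 and 29 with replicate 3 alone. Array weights gave 974 higher. With an array left out, 310 to 861 were lower and 184 to 689 higher, the fewest without replicate 1, and when summarised again 36 to 335 and 21 to 219.

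Slc38a2 and Slc6a11, which did not pass, changed sign: -0.10 and -0.46 with the brightest probe set, -0.0043 and -0.15 with the dimmer 50% of rows removed, and for Slc6a11 -0.0396 with replicate 3 alone. With an array left out, under both treatments of the gene values, Slc38a2 ran from -0.0868 to 0.16 and Slc6a11 from -0.0765 to 0.076. Slc36a2 was 0.15 with replicate 3 alone and ran from -0.40 to 0.15 with an array left out. Slc7a10 ran from -0.13 to 0.0139 with an array left out. The brightest probe set had the opposite sign to the gene value in 17 members, none of which passed: Slc1a3, Slc1a6, Slc1a7, Slc36a3, Slc38a1, Slc38a2, Slc38a5, Slc38a6, Slc38a7, Slc38a8, Slc43a1, Slc6a11, Slc6a14, Slc6a16, Slc6a9, Slc7a1 and Slc7a15. The causes of these shifts were not tested, except that fits with fewer arrays or without moderation have fewer degrees of freedom. No paired analysis was possible because the groups share no replicate numbers.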
